A study of Homo sapiens with 10 samples.

Results

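The collagens described here are the 37 genes of the count table whose symbols carry the collagen pattern (COL, a type number, A and a chain number), without the chains of type IV and of type XVIII, which belong to basement membranes. The table has 22626 rows, of which 44 fit the pattern and 7 were left aside as basement membrane collagens. By structure the 37 genes fall into 11 fibrillar chains, 10 fibril-associated chains (FACIT, fibril-associated collagens with interrupted helices), 5 chains of beaded filaments, 3 of networks, 1 of anchoring fibrils, 4 transmembrane collagens, 1 multiplexin and 2 others. The cells were ARPE-19, an established human line of retinal pigment epithelium (RPE), the cell layer behind the photoreceptors. They were kept for 48 h in control medium with 5.5 mM glucose and 32 mM mannitol (n = 5 libraries) or in high glucose medium with 37.5 mM glucose (n = 5 libraries). Mannitol is a sugar alcohol that the cells hardly use, added so that the control medium is as concentrated as the high glucose medium. All libraries come from the same cell line, no gene was altered in them, and nothing in the labels says that the cultures were separate, so the p-values below measure the spread between these libraries.

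Collagens are secreted proteins whose chains wind around each other in a helix of repeated glycine triplets. Fibrillar chains are made as procollagens in the endoplasmic reticulum, where prolines and lysines are hydroxylated, and they assemble into fibrils only after their ends are cut off outside the cell. FACIT collagens sit on the surface of such fibrils, network collagens such as type VIII build sheets, type VI builds beaded filaments, and type VII anchors epithelia to the tissue beneath. In the eye, the RPE rests on Bruch's membrane, which holds both basement membrane and fibrillar collagens, and the RPE is known to make part of it.

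Since several collagens were lower together, sequence next to their starts is shown first. The 250 bases upstream of the RefSeq transcription start (GRCh38.p14) are given for 3 collagens whose transcripts were lower in high glucose and whose window holds no exon base of GENCODE release 29. Capitals mark 3 short motifs on either strand: the GC box (GGGCGG or CCGCCC), the CCAAT box (CCAAT or ATTGG) and the TATA box (TATAAA or TTTATA).
COL11A1, chr1:103108523-103108772, minus strand: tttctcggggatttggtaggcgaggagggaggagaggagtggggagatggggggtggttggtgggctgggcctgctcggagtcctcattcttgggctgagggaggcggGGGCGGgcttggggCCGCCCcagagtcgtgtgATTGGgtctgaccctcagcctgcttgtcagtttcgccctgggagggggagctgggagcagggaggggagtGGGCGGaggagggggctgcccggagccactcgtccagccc
COL27A1, chr9:114155287-114155536, plus strand: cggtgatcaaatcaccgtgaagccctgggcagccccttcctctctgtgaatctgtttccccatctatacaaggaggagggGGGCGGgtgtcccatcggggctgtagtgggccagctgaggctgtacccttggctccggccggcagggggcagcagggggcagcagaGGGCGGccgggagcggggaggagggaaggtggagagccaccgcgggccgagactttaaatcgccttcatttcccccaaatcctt
COL7A1, chr3:48595330-48595579, minus strand: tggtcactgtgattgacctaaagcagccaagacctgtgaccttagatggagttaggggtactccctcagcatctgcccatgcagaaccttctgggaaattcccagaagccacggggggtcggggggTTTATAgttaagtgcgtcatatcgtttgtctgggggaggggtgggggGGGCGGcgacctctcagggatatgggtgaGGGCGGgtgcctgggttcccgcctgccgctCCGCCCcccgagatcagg
GENCODE also has a COL11A1 transcript that starts further upstream, and the COL11A1 window lies in its first intron, inside the gene. That window holds 3 GC boxes and a CCAAT box that spans bases -110 to -106 from the start. The COL27A1 window holds 2 GC boxes. The COL7A1 window holds 3 GC boxes and the letters TTTATA at bases -124 to -119. These windows are rich in G and C, at 68.8% for COL11A1, 64.4% for COL27A1 and 60.8% for COL7A1. At least 1 RefSeq window was found for 25 of the 37 collagens, 35 windows in all since some genes have several starts. The 25 include 5 of the 7 that were lower in high glucose, and COL1A1 and COL5A2 were without a window. Shares are counted by gene, a motif in any window of a gene being enough. The GC box was present in 5 of these 5 genes and in 16 of the 25, beside 46.2% of all 27305 genes with windows of this length. It was also present in 4 of the 6 tested collagens with a window that were not called (COL24A1, COL12A1, COL16A1 and COL8A2). The CCAAT box was found in 7 of the 25 (37.0% of all genes) and the TATA box in 6 of the 25 (13.05% of all genes). The letters CACGTG, a form of the E-box, were in 0 of the 35 windows of the 25 genes (7.73% of all genes). These matches are letters in a window and were not tested for any use by the cells.

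Counts were compared with the quasi-likelihood test of edgeR on all 14936 rows that passed its filter on low counts, p-values were adjusted over these rows by the Benjamini-Hochberg method, and a gene was called at an adjusted p under 0.05. Total counts per library lay between 32448991 and 45864176. In the labelled groups TXNIP, a gene that glucose induces, was higher in high glucose by 3.15 on the log2 scale, with no overlap between the groups. High glucose libraries are named by their column (HG_1 to HG_5). In HG_1 and control replicate 2, values rose with the GC content of the transcripts, by 0.188 and 0.170 log2 units per 10 percentage points, against slopes between -0.0916 and -0.00519 in the other 8 libraries. Results are therefore also given with a correction for GC content and length and without these 2 libraries.

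High glucose libraries held less fibrillar collagen mRNA. Of the 15 collagens that passed the filter, 7 were lower in high glucose (COL1A1, COL5A1, COL9A2, COL11A1, COL27A1, COL7A1 and COL5A2) and 0 were higher, while over all genes tested 7.80% were lower and 7.62% were higher. The 7 include 5 of the 6 fibrillar chains tested, 1 of 3 FACIT chains and the chain of the anchoring fibrils. Of the single beaded filament chain tested, the 2 network chains and the 2 transmembrane collagens, 0 were called. At an unadjusted p under 0.05, 1 collagen was higher (COL16A1), and DESeq2 called 0 higher. The groups did not overlap for 6 of the 15, all lower in high glucose (of all genes tested, 6.91% were lower and 6.74% higher without overlap). The median log2 fold change over the 15 was -0.39 and over the 6 fibrillar chains -0.97, beside 0.00132 over all genes tested. Because the RNA came from whole cultures, fewer cells that express a gene and less of its RNA per cell cannot be told apart.

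**Figure D1:**
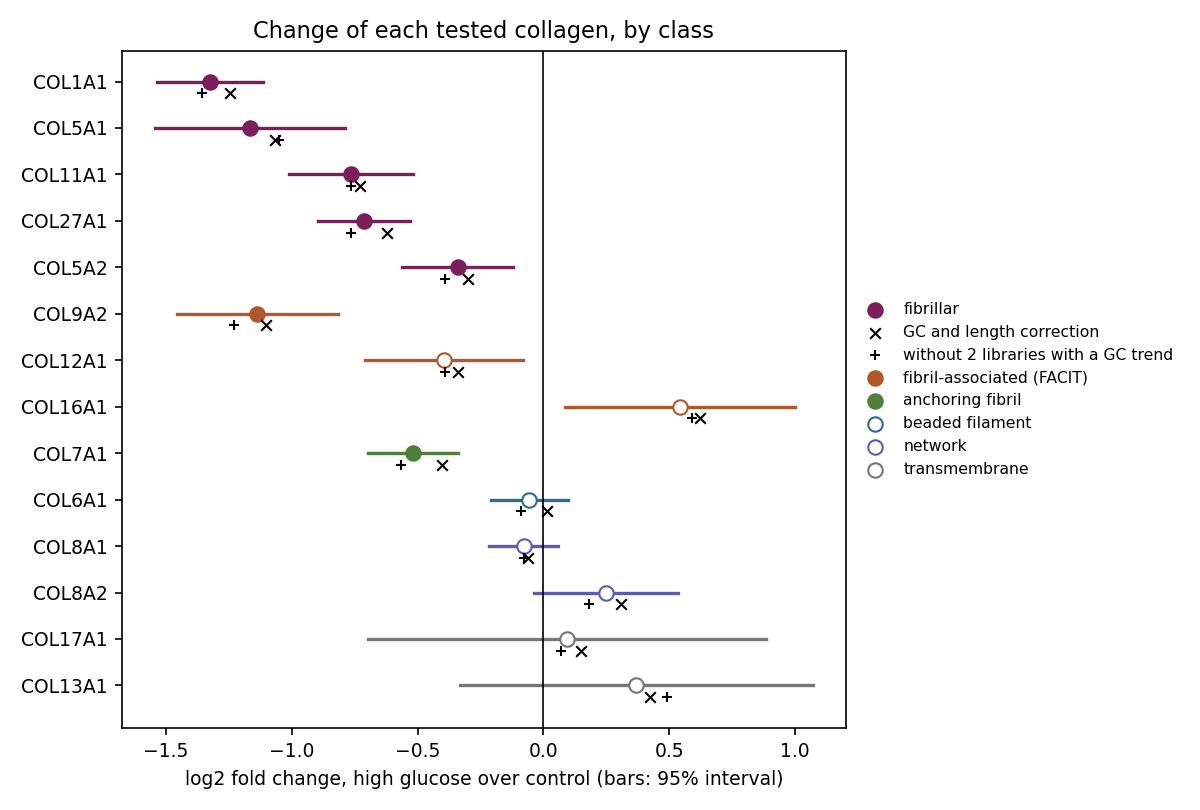
Log2 fold change of 14 tested collagens (high glucose over control, x axis) with its 95% interval, by class; filled circles passed an adjusted p of 0.05 in edgeR. COL24A1, with an interval from -3.73 to 0.70, is left out. Crosses give the value after the correction for GC content and length and plus signs the value without control replicate 2 and HG_1. The fibrillar chains lie between -1.33 and -0.34, and the network, beaded filament and transmembrane chains have intervals that cross 0.

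The collagens of these cells were few and of unlike abundance. On the FPKM scale (fragments scaled to transcript length and library size, from the authors' table), which allows genes of different length to be compared, 9 of the 37 had a mean of at least 1 over the 10 libraries and 3 a mean of at least 10. COL8A1 was the highest with 129 FPKM, followed by COL11A1 with 75.3 and COL12A1 with 48.5. Between 9 and 6 FPKM came COL6A1 with 8.81, COL5A2 with 8.15, COL7A1 with 7.93 and COL1A1 with 6.24. These means pool both groups, and COL1A1 comes last of the 4 through its high glucose libraries, with 9.06 ± 1.20 FPKM in control and 3.43 ± 0.340 in high glucose (SD, n = 5 each). COL9A2 followed with 2.38, COL8A2 with 1.36, COL27A1 with 0.990, COL5A1 with 0.570 and COL16A1 with 0.540. The last pair changed places between the groups, with COL5A1 at 0.788 and COL16A1 at 0.430 FPKM in control and at 0.352 and 0.650 FPKM in high glucose, without overlap of the pair in either group. COL9A2 and COL8A2 overlapped in high glucose, and COL8A2 and COL27A1 in control. COL8A1, COL11A1 and COL12A1 together made up 86.4% of the summed FPKM of the collagens in control and 87.6% in high glucose. In control COL6A1, COL5A2, COL7A1 and COL1A1 cannot be ranked, since their FPKM ranges overlapped (8.30 to 9.45, 6.72 to 10.5, 8.30 to 10.6 and 8.19 to 11.06).

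**Figure D2:**
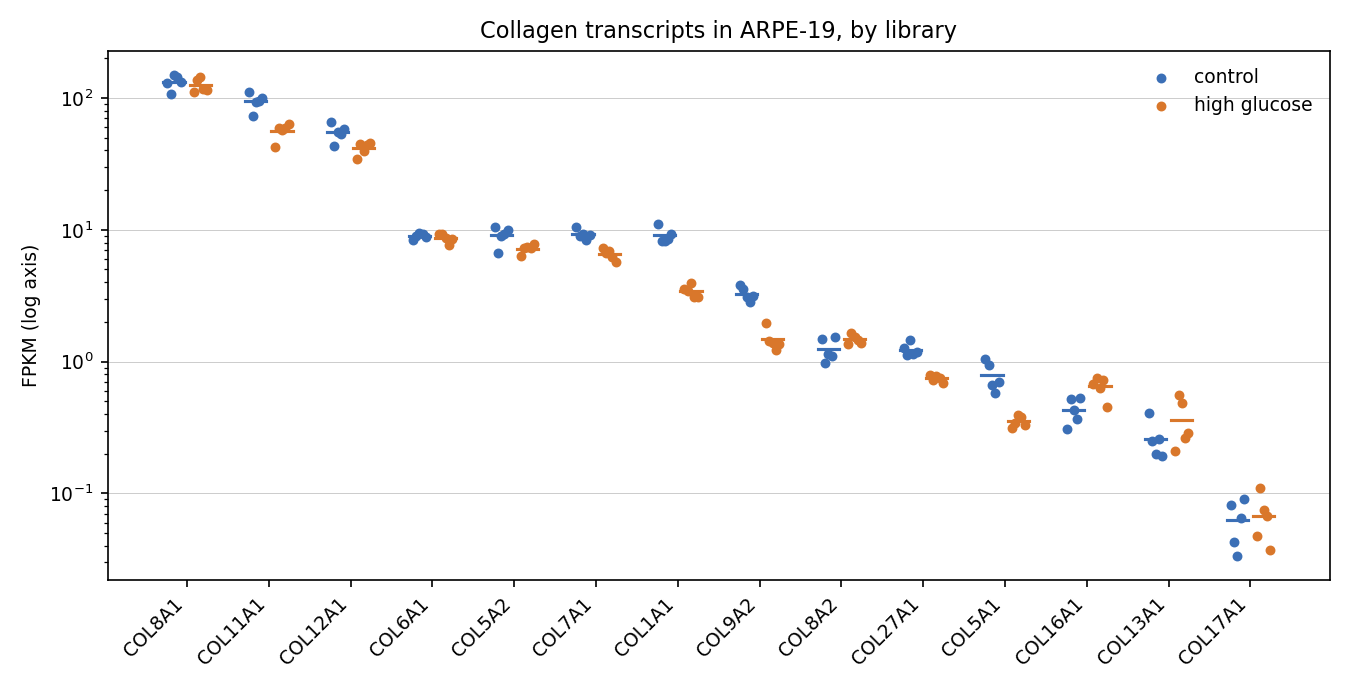
FPKM (log axis) of the 14 tested collagens that were above 0 in every library, ordered by their mean; points are libraries and short lines are group means (n = 5 each). COL8A1 had the highest mean, the points of the 2 groups separate for COL11A1, COL7A1, COL1A1, COL9A2, COL27A1 and COL5A1, and they meet for COL8A1, COL12A1, COL6A1, COL5A2 and COL8A2.

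COL11A1 encodes the alpha 1 chain of type XI collagen, a thin-fibril collagen best known from cartilage and the vitreous, where it lies inside fibrils and limits their width. It was the most abundant fibrillar chain of these cells (gene at chr1:102876467-103108872, minus strand, 67 exons in its longest coding transcript). Its normalised read counts, scaled to a common library size (CPM), in control replicates 1 to 5 were 882, 586, 733, 732 and 770. In the high glucose libraries HG_1 to HG_5 they were 348, 452, 441, 451 and 490. All high glucose libraries lay below all control libraries, with HG_1 and control replicate 2 the lowest of their groups. The log2 fold change was -0.76 (SE 0.112, 95% interval -1.01 to -0.52, edgeR adjusted p = 0.0013), a decrease to 0.589 of the control level. After the correction for GC content and length it was -0.73, and without control replicate 2 and HG_1 it was -0.76. Its partner in cartilage, COL11A2, held between 5 and 12 counts per library and was below the filter.

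COL1A1 encodes the alpha 1 chain of type I collagen, the main fibril protein of bone, skin and scar tissue (chr17:50183289-50201632, minus strand, 51 exons). Its CPM in control replicates 1 to 5 were 53.8, 44.9, 40.1, 42.0 and 45.6. In HG_1 to HG_5 they were 19.5, 16.4, 20.7, 16.9 and 16.8. The lowest control library was thus well above the highest high glucose library. A log2 fold change of -1.33 (SE 0.0958, 95% interval -1.54 to -1.11, edgeR adjusted p = 2.86e-05) was the largest decrease among the 7 called collagens, a level 0.399 times that of control. It was -1.25 with the correction for GC content and length and -1.36 without the 2 libraries. COL1A2, the alpha 2 chain that joins 2 alpha 1 chains in ordinary type I collagen, had 0 counts in 9 libraries and 4 counts in control replicate 2. A count of 0 here allows up to 3 counts, or between 0.0668 and 0.0912 CPM depending on the library, which covers counting error only.

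Type V collagen, which lies in the core of type I fibrils and starts their assembly, was represented by both its main chains. COL5A1 (chr9:134641774-134844843, plus strand, 66 exons) had 9.55, 8.93, 6.04, 5.30 and 6.38 CPM in control replicates 1 to 5. It had 2.99, 3.10, 3.54, 3.47 and 3.01 CPM in HG_1 to HG_5. The high glucose libraries were close together and all below control, while control replicates 1 and 2 stood above the other 3. COL5A1 thus had a log2 fold change of -1.17 (SE 0.171, 95% interval -1.54 to -0.79, edgeR adjusted p = 0.00132), and -1.05 without control replicate 2 and HG_1. COL5A2 (chr2:189031896-189225312, minus strand, 54 exons) had 78.0, 51.0, 65.7, 67.9 and 72.6 CPM in control and 47.9, 52.6, 53.6, 53.2 and 57.1 CPM in high glucose. Here control replicate 2 lay inside the high glucose range, so that the groups overlapped. For COL5A2 the log2 fold change was -0.34 (SE 0.101, 95% interval -0.56 to -0.12, edgeR adjusted p = 0.0431). That call rests on a narrow margin, since it was lost in 4 other settings and in 9 of the 10 fits that left out 1 library (adjusted p between 0.0575 and 0.102). It held with the correction for GC content and length (edgeR adjusted p = 0.00499) and without the 2 libraries (edgeR adjusted p = 0.00134). COL5A3 had 0 counts in all libraries.

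COL27A1, a fibrillar chain of cartilage with a shorter helix than type I (chr9:114155560-114312511, plus strand, 61 exons), had 10.6, 9.78, 11.4, 9.41 and 9.93 CPM in control replicates 1 to 5. In HG_1 to HG_5 it had 6.86, 5.99, 6.40, 6.20 and 5.75 CPM. The groups were apart and each varied little. Its log2 fold change was -0.71 (SE 0.0837, 95% interval -0.90 to -0.53, edgeR adjusted p = 0.000373). COL24A1, the last fibrillar chain that passed the filter, held at most 24 counts in any library and 0 counts in control replicate 4, HG_2 and HG_3. Its log2 fold change of -1.52 had a 95% interval from -3.73 to 0.70 (edgeR adjusted p = 0.370). HG_1, with 18 counts, was the highest high glucose library, and without it the log2 fold change was -2.92 (edgeR adjusted p = 0.0877). COL3A1, the chain of type III collagen of soft tissues, had between 0 and 9 counts, and COL2A1, the main cartilage collagen, had 0 counts in all libraries.

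COL3A1 and COL5A2 lie 19.1 kb apart on chromosome 2, on opposite strands. In these cells COL5A2 gave between 1751 and 3231 counts per library while COL3A1 gave at most 9. On chromosome 21, COL6A1 and COL6A2 lie 93.0 kb apart on the same strand, and COL6A1 gave between 1124 and 1853 counts while COL6A2 gave 1 count in HG_5 and 0 elsewhere.

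Among the fibril-associated collagens, COL9A2 was lower and COL12A1 and COL16A1 did not pass the threshold. COL9A2 encodes a chain of type IX collagen, which coats the fibrils of cartilage and the vitreous (chr1:40300487-40317813, minus strand, 32 exons). It had 11.0, 11.3, 9.38, 8.60 and 9.32 CPM in control replicates 1 to 5 and 6.21, 4.15, 4.24, 3.77 and 4.17 CPM in HG_1 to HG_5. HG_1 stood above the other high glucose libraries and still below every control library. For COL9A2 the log2 fold change was -1.14 (SE 0.145, 95% interval -1.46 to -0.82, edgeR adjusted p = 0.000612), and -1.23 without control replicate 2 and HG_1. The other type IX chains were not detected at a testable level, with 0 counts for COL9A1 and at most 3 counts for COL9A3.

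COL12A1, the long chain of type XII collagen that bridges fibrils in tendon and stroma (chr6:75084326-75206051, minus strand, 66 exons), had 747, 452, 615, 599 and 655 CPM in control. In high glucose it had 341, 508, 449, 511 and 525 CPM. Control replicate 2 fell among the high glucose libraries, and HG_1 was the lowest of all. The log2 fold change was -0.39 (SE 0.142, 95% interval -0.71 to -0.08, edgeR adjusted p = 0.0897). It passed the threshold with the correction for GC content and length (edgeR adjusted p = 0.00835), without the 2 libraries (edgeR adjusted p = 0.0049) and with DESeq2 (adjusted p = 0.0277). COL16A1, a FACIT chain at low level, had between 1.82 and 3.14 CPM in control and between 2.34 and 4.19 CPM in high glucose. Its log2 fold change of 0.54 (SE 0.208, 95% interval 0.08 to 1.00) did not pass (edgeR adjusted p = 0.109). It did with the correction for GC content and length, at 0.62 (edgeR adjusted p = 0.0229). COL14A1, COL19A1, COL20A1 and COL21A1 had at most 24, 2, 14 and 10 counts in any library, and COL22A1 had 0.

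COL7A1 encodes the chain of anchoring fibrils, the loops that fasten an epithelial basement membrane to the stroma (chr3:48564073-48595267, minus strand, 118 exons). Its CPM in control replicates 1 to 5 were 96.1, 83.3, 83.0, 75.3 and 82.6. They were 66.3, 58.8, 62.3, 53.7 and 52.2 in HG_1 to HG_5. All high glucose libraries lay below all control libraries. COL7A1 had a log2 fold change of -0.52 (SE 0.0813, 95% interval -0.70 to -0.34, edgeR adjusted p = 0.00178), and -0.40 with the correction for GC content and length.

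The network and beaded filament chains showed no change past the threshold. COL8A1, a short-chain collagen that builds the sheets beneath corneal and vascular endothelium and also occurs in Bruch's membrane (chr3:99638475-99799226, plus strand, 5 exons), had 727, 589, 646, 632 and 674 CPM in control. In high glucose it had 555, 646, 621, 629 and 643 CPM, and 4 of these 5 lay within the control range. The log2 fold change was -0.08 (SE 0.0626, edgeR adjusted p = 0.470), with a 95% interval from -0.22 to 0.06. COL8A2, its partner chain, had between 4.84 and 7.48 CPM in control and between 6.66 and 8.07 CPM in high glucose, a log2 fold change of 0.25 (95% interval -0.04 to 0.54, edgeR adjusted p = 0.245). COL6A1, a chain of the beaded filaments around cells (chr21:45981737-46005050, plus strand, 35 exons), had 37.7, 41.6, 42.8, 42.3 and 39.5 CPM in control. In high glucose it had 43.6, 41.2, 39.0, 34.2 and 38.3 CPM, a range that covers that of control. The log2 fold change was -0.06 (95% interval -0.21 to 0.10, edgeR adjusted p = 0.667), and it turned to 0.0155 with the correction for GC content and length. The other chains of type VI, which join COL6A1 in its filaments, held at most 10 counts in any library (COL6A3), and COL6A5 had 0.

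The transmembrane collagens were near the limit of the filter. COL13A1, found at cell contacts and the nerve-muscle junction, had a log2 fold change of 0.37 with a 95% interval from -0.33 to 1.07 (edgeR adjusted p = 0.506), and between 0.18 (without HG_2) and 0.58 (without control replicate 1) when 1 library was left out. COL17A1, a protein of the hemidesmosomes that hold epithelia to their basement membrane, had a log2 fold change of 0.09 with a 95% interval from -0.70 to 0.89 (edgeR adjusted p = 0.905). COL17A1 held between 8 and 27 counts per library, and changes of either sign lie within these intervals. In all, 22 of the 37 collagens were not tested, of which 5 had 0 counts in all libraries and 9 had at most 3 counts in any library.

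As a share of all counts of a library, the collagens held 0.228% ± 0.0298 in control (SD, n = 5) and 0.173% ± 0.0190 in high glucose (SD, n = 5), a ratio of 0.759. The ranges of the 2 groups overlapped slightly (0.184% to 0.266% and 0.140% to 0.187%). The fibrillar chains went from 0.0868% ± 0.0126 to 0.0520% ± 0.00642 (SD, n = 5 each), a ratio of 0.599 with no overlap. The FACIT chains had a ratio of 0.766, the beaded filament chains 0.968 and the network chains 0.958, each with overlap, and the anchoring fibril chain had 0.703 without overlap. The classes with few counts had ratios of 1.24 (transmembrane), 1.03 (others) and 0.296 (multiplexin), each with overlap. COL11A1 makes up most of the fibrillar sum, COL12A1 of the FACIT sum, COL8A1 of the network sum and COL6A1 of the beaded filament sum, and COL7A1 is the anchoring fibril class alone. The sums are given as a description with no test.

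**Figure D3:**
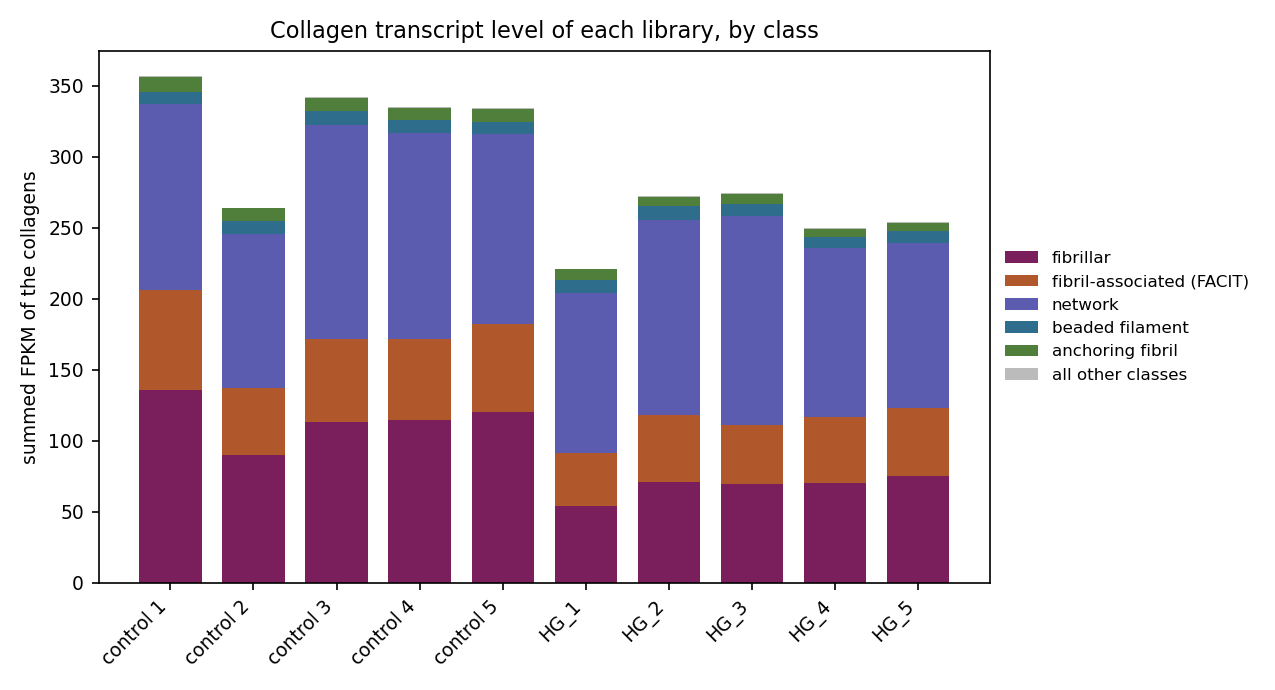
Summed FPKM of the 37 collagens in each library (bars from 0), split by class; classes not named in the legend are drawn together in grey at the top and are barely visible. The fibrillar part lies between 89.9 and 136 in the control libraries and between 53.9 and 75.1 in the high glucose libraries, while the network part overlaps between the groups.

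The make-up of the collagen mRNA differed as well on the FPKM scale, with the limit of that scale given in the processing section. COL8A1 went from 40.7% to 49.1% of the summed collagen FPKM, without overlap between the groups. Within the fibrillar chains COL11A1 held similar shares, with 82.3% in control and 82.5% in high glucose, and overlapping ranges. COL1A1 went from 7.94% ± 0.729 to 5.14% ± 1.00 of the fibrillar FPKM and COL5A2 from 7.90% ± 0.288 to 10.7% ± 0.586 (SD, n = 5 each), both without overlap. Some ratios between chains, chosen after their values were seen and not tested, give this per pair. COL11A1 was at 10.4 times the FPKM of COL1A1 in control and 16.6 times in high glucose. COL5A2 was at 12.1 times the FPKM of COL5A1, its partner in type V collagen, in control and 20.6 times in high glucose.

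The basement membrane collagens are the class most like these in function. Of the 7, 4 were lower and 0 higher, with a median log2 fold change of -0.55. Over all genes tested, 7.80% were lower and 7.62% higher. COL4A1 and COL4A2, which form the common type IV network, had log2 fold changes of -1.01 and -0.81, and COL4A4 had -0.79. COL18A1, the other multiplexin, had -0.49 (edgeR adjusted p = 0.0815). The values of these named chains, and that of COL4A3 (-0.55), lie within the range of the called fibrillar chains. COL4A5, with -0.18 (edgeR adjusted p = 0.250), and COL4A6, with 0.35 (edgeR adjusted p = 0.148), lie outside it. Whether the classes differ was not tested.

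Genes that make, release and break down collagen were compared in the same fit, as lists chosen with results of these libraries known. The counts called stand beside 7.80% lower and 7.62% higher over all genes tested. Of 19 genes of chain modification and folding, 4 were lower and 2 higher, with a median log2 fold change of -0.08. P3H2, a prolyl 3-hydroxylase, had -0.70, SERPINH1 (HSP47), the chaperone that binds the collagen helix, -0.42, and P3H1 -0.32. CRTAP, the partner of P3H1, and PLOD3, a lysyl hydroxylase, were higher by 0.29 and 0.28. Of 13 genes of propeptide removal and cross-linking, 4 were lower and 1 higher (median -0.32). BMP1, the procollagen C-proteinase, had a log2 fold change of -0.81, and the lysyl oxidases LOXL1 and LOXL2, which cross-link fibrils, had -0.57 and -0.53.

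Of 9 genes for the export of large cargo from the endoplasmic reticulum, 3 were higher and 0 lower (7.62% and 7.80% of all genes tested). Their median log2 fold change was 0.06. CREB3L1 (OASIS), a transcription factor that drives type I collagen genes in bone, was higher by 0.60 while COL1A1 was lower. KLHL12, which enlarges the coats of export vesicles, was higher by 0.25, a call lost in 3 fits without 1 library (HG_3, HG_4 or HG_5). MIA2 was higher by 0.22, a call lost in 4 other settings and in 7 of the 10 fits without 1 library.

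Of 9 collagen-degrading enzymes and their inhibitors that were tested, 5 were higher and 2 lower (median 0.40), beside 7.62% and 7.80% of all genes tested. MMP1, the interstitial collagenase, went from 0.497 ± 0.138 to 2.33 ± 0.499 CPM (SD, n = 5 each), a log2 fold change of 2.22, and MMP3 (stromelysin 1) had 1.77. CTSK, the lysosomal protease cathepsin K, which cuts helical collagen, went from 256 ± 47.7 to 577 ± 38.5 CPM (SD, n = 5 each), a log2 fold change of 1.17. MMP2, a gelatinase, was lower by 0.36 and its inhibitor TIMP2 was lower by 0.30.

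Of 9 collagen receptors tested, 1 was higher and 2 were lower, with a median of -0.05, beside 7.62% and 7.80% of all genes tested. DDR2, the receptor kinase for fibrillar collagen, was higher by 0.54, and DDR1, its relative in epithelia, was lower by 0.40, although that call was lost in 5 fits without 1 library (control replicate 1, HG_2, HG_3, HG_4 or HG_5). ADGRG1, a receptor for type III collagen, was lower by 0.39. Among 14 proteins that bind fibrils, 6 could be tested and 1 was lower, THBS1 (thrombospondin 1), with a log2 fold change of -1.61. The small proteoglycans BGN, LUM, FMOD and ASPN, and DPT, had 0 counts in all libraries, and DCN, OGN and POSTN had under 10 counts in any library. FN1, fibronectin, had a log2 fold change of -0.34 (edgeR adjusted p = 0.0971).

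**Figure D4:**
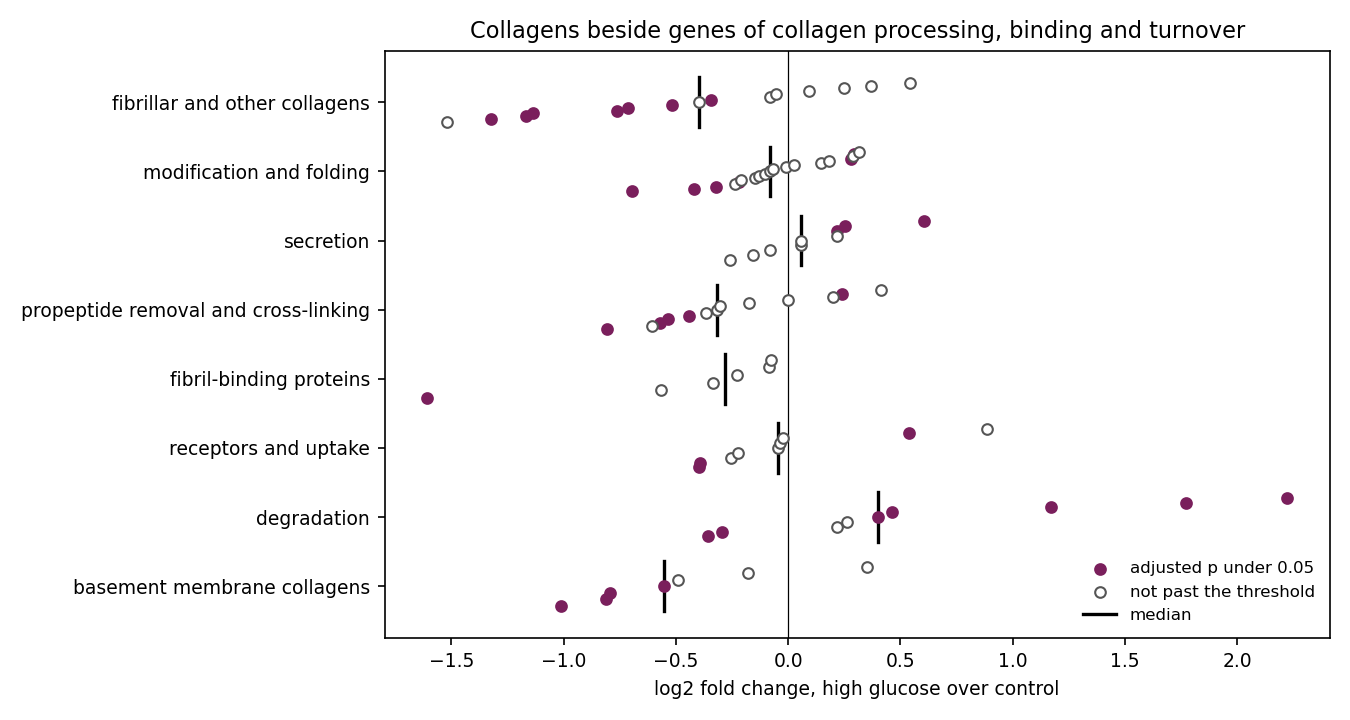
Log2 fold change (high glucose over control, x axis) of each tested gene in the 15 collagens and 7 lists of collagen biology; filled points passed an adjusted p of 0.05 in edgeR and short black lines are medians. The medians lie at -0.39 for the collagens, -0.55 for the basement membrane collagens and 0.40 for degradation.

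Markers of cell types were read in the same libraries, where 7.80% of all genes tested were lower and 7.62% higher. Of 17 RPE markers 12 were tested, 0 were higher and 3 were lower (KRT18 -0.68, KRT8 -0.62 and PMEL -0.72 on the log2 scale). Of the defining genes of mature RPE, RPE65 had at most 6 counts in any library and TTR 0. The pigment genes TYR and DCT and the epithelial CDH1 had at most 34, 17 and 8 counts in any library and were not tested. The visual cycle genes RLBP1 (at least 245 counts in every library), RDH5 (at least 174) and LRAT (at least 30) passed the filter. So did TYRP1 (at least 36 counts in every library), OTX2 and MITF. The summed level of the list was between 2842 and 3600 CPM in control and between 1804 and 2479 CPM in high glucose, most of it KRT8 and KRT18. Without these and BEST1, the other 14 summed to between 174 and 191 CPM in control and between 156 and 166 CPM in high glucose. The part of these genes in the collagen results was not tested. BEST1, counted between 24 and 18223 times, overlaps FTH1 on the opposite strand over 5798 bases, and its reads could not be told apart from those of FTH1 without strand.

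Of 14 mesenchymal markers 9 were tested, 5 were lower and 1 higher, beside 7.80% and 7.62% of all genes tested. TAGLN had a log2 fold change of -1.30, S100A4 -1.16 and PDGFRB -0.78, and FAP was higher by 0.46. The summed level, most of it VIM, was between 6454 and 6928 CPM in control and between 6538 and 7459 CPM in high glucose, and THY1 and LUM had 0 counts in all libraries. The part of the mesenchymal genes in the collagen results was not tested either. Of the 4 endothelial markers, KDR was lower by 0.63, a call lost in 5 other settings and in 9 of the 10 fits without 1 library, while CDH5 had 0 counts. That list summed to between 2.93 and 5.05 CPM in control and between 2.13 and 3.01 CPM in high glucose. The leukocyte gene CD68, also known from other cells with many lysosomes, was higher by 0.70, and PTPRC had at most 4 counts.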

How the data were processed

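Reads of 10 ARPE-19 libraries (5 control, 5 high glucose) were processed by the authors. Per the labels, total RNA was extracted with Trizol and made into libraries with a VAHTS Universal V6 kit, and the submitters' processing notes name fastp 0.20.1, HISAT2 2.2.1 and the build GRCh38. The counting program, its strand setting and the annotation are not given in the sources used here. The authors deposited a table of whole-number read counts per gene without normalization and a table of FPKM values, divided by transcript length and library size. FPKM was not CPM over 1 fixed length per gene. COL8A1 was at 727 CPM and 130 FPKM in control replicate 1, and at 646 CPM and 150 FPKM in control replicate 3. Shares and ratios of FPKM carry this limit. Of the rows, 2163 are loci named MSTRG, which held 1.34% to 1.65% of each library, and reads of a collagen assigned to such a locus could not be traced.

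From the counts, edgeR 4.0.16 in R 4.3.3 was run with its default filter (minimum count 10), TMM normalization and quasi-likelihood test, which left 14936 rows, and p-values were adjusted by the Benjamini-Hochberg method. CPM are counts scaled to the TMM-normalized library size. Levels of different genes were compared by FPKM. The high glucose columns were mapped to their group only. Total counts between 32448991 and 45864176 per library set the precision, and limits from counts cover counting error only. Within the groups, each of 20 library pairs differed beyond sampling noise (chi-square per gene between 13.8 and 78.5). Gene positions, exons and GC content come from GENCODE release 29 on GRCh38, and promoter windows from RefSeq GRCh38.p14.

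The members and the lists were chosen with earlier results of these data known. Every collagen was counted by class, and values in every library were given for those with an adjusted p under 0.05 and the 8 with the highest mean FPKM. In each other list at most 3 genes past the threshold with the largest change were to be named, and further genes named there were chosen after their values were seen. Alternatives were no filter or at least 10 counts in every library, library size alone, RLE size factors, DESeq2 1.42.0, limma 3.58.1 on log2(FPKM + 1) and log2(FPKM + 0.1), a correction for GC content and length (lowess, span 0.3), each library left out in turn, and control replicate 2 and HG_1 left out together. The steps were tested on simulated counts.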

Additional observations from a re-analysis of the deposited data

Results flagged for a closer look

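In 6 of the 30 groups of 5 libraries (15 tested collagens, 2 conditions), 1 library stood apart by a gap, as a share of the group's whole range, above the 95% critical value of Dixon's test. At this level about 1.5 of 30 would be flagged if the groups were independent and their values normally distributed. The genes share the same libraries and some hold few counts, so the 6 cannot be read as an excess. HG_1 accounts for 3 of the 6. COL9A2 was at 6.21 CPM in HG_1 and between 3.77 and 4.23 CPM in the other high glucose libraries (gap 0.809). COL8A1 was at 555 CPM in HG_1 and between 621 and 646 CPM in the others (gap 0.729). COL24A1 was at 0.468 CPM in HG_1 and between 0 and 0.122 CPM in the others (gap 0.740).

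COL24A1 was also at 0 CPM in control replicate 4 and between 0.394 and 0.539 CPM in the other control libraries (gap 0.731). COL16A1 was at 2.34 CPM in HG_5, below the 3.68 to 4.19 CPM of the other high glucose libraries (gap 0.721). COL13A1 was at 1.39 CPM in control replicate 1, above the 0.674 to 0.878 CPM of the other control libraries (gap 0.717). The causes were not tested.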

How the results depend on the processing

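No paired analysis was run, since the labels name no batch or pairing. The high glucose columns also carry numbers while their labels carry letters. Of the collagens, 6 to 8 were called lower under every alternative, and 4 or 5 of them were fibrillar. COL1A1, COL5A1, COL9A2, COL11A1, COL27A1 and COL7A1 kept direction and call in every fit. COL5A2 lost its call with library size alone (adjusted p = 0.0692), without a filter (0.0558) and with limma on log2(FPKM + 1) and log2(FPKM + 0.1) (0.0985 and 0.0980), and in every fit without 1 library except that without control replicate 2. COL12A1 gained a call in 5 other settings and without control replicate 2 (adjusted p = 0.0252), so that 8 rather than 7 could be lower. Called higher were 0 to 1: COL16A1, with the correction for GC content and length (1) and without HG_5 (1, adjusted p = 0.0400). COL6A1 turned to 0.0155 with that correction (adjusted p = 0.887). COL17A1 turned to -0.12 without HG_2, -0.02 without control replicate 2 and -0.06 without control replicate 3 (range -0.12 to 0.26). Over all genes, 3968 were called with the correction and 4035 without control replicate 2 and HG_1, against 2303 with all libraries, and 1648 to 2993 with 1 library left out. A pseudocount of 1 FPKM makes changes of low genes smaller by construction, as for COL5A1 (-0.40), COL27A1 (-0.36) and COL9A2 (-0.79). Of 551 fits of 29 listed genes, 33 lost a call (KLHL12, MIA2, DDR1 and KDR) and 0 turned. COL24A1 was not called in any fit, with -0.05 on log2(FPKM + 1) and -2.92 without HG_1. COL24A1, COL13A1 and COL17A1 rest on at most 24, 72 and 27 counts in any library.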

Other observations

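Several collagens were found without the chain they are usually assembled with. COL1A1 gave between 551 and 2029 counts per library while COL1A2 gave at most 4. COL6A1 gave between 1124 and 1853 counts while COL6A2, COL6A3, COL6A5 and COL6A6 gave at most 1, 10, 0 and 5. COL9A2 gave between 124 and 502 counts while COL9A1 gave 0 and COL9A3 at most 3. COL11A1 gave between 13378 and 34300 counts while COL11A2 gave at most 12. Type V and type VIII collagen, by contrast, had both chains, with COL5A2 at 8.15 and COL5A1 at 0.570 FPKM and COL8A1 at 129 and COL8A2 at 1.36 FPKM over the 10 libraries. Protein was not measured in these libraries, and whether reads of the missing chains were assigned to unnamed loci was not tested.

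For the 4 abundant collagens with transcripts of low GC content, COL11A1 (47.3%), COL12A1 (46.3%), COL5A2 (47.9%) and COL8A1 (46.8%), control replicate 2 was the lowest control library and HG_1 the lowest high glucose library.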
